A study of Mus musculus with 2 samples.

Results

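The genes of the motile cilium and of the transport system that builds it were followed in 68 members of 8 gene families, out of 28692 genes listed and 18907 with at least 1 UMI. A UMI is a molecule tag that counts each captured transcript once. Members are the symbols that begin with Dnah, Dnaic, Dnali, Cfap, Tekt, Rsph, Ift or Drc followed by a digit and that hold at least 10 UMIs over both libraries. There were 24 Cfap, 14 Ift, 13 Dnah, 7 Rsph, 5 Tekt, 2 Dnaic, 2 Drc and 1 Dnali genes. Of the 74 symbols that matched, 6 stayed below the minimum (Dnah2os 8, Dnah17 7, Cfap73 6, Dnah14 2, Rsph6a 2 and Ift88os 0 UMIs). The members nearest above it were Cfap99 with 20, Tekt3 with 28 and Dnah8 with 37 UMIs.

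The cells were Epcam+ cells of lung from C57BL/6 mice, purified by flow cytometry and profiled with the 10x Genomics 3′ kit. There were 2 libraries, 1 labelled Control and 1 labelled NAPH, the second after an injury that the labels give only by this abbreviation. The sources used here give no dose, time after injury, age or number of animals. Each group is 1 library without replicates, so nothing was tested between groups, and every interval covers counting error only.

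A motile cilium beats because dynein motors, arranged as outer and inner arms on paired microtubules, slide these doublets against each other. Radial spokes and the nexin-dynein regulatory complex control the motors, tektins and several Cfap proteins lie in or on the doublet wall, and intraflagellar transport (IFT) particles carry building material along the axoneme. In the airways, ciliated cells use these organelles to move mucus. IFT also serves the single primary cilium found on many other cell types.

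Ciliated cells were those with at least 10 UMIs of Foxj1, Ccdc153 and Tmem212 together per 10000 UMIs and fewer than 1000 of Scgb1a1. There were 192 in Control, 5.98% of cells (exact binomial 95% interval 5.18% to 6.86%), and 203 in NAPH, 5.68% (4.95% to 6.49%). The doublet step had taken 6 cells from this class in Control and 18 in NAPH, of 87 and 109 removed in all. Secretory cells (Scgb1a1 at least 1000) numbered 757 and 197, and alveolar type 2 (AT2) cells (Sftpc at least 500) 1800 and 2515. A further 353 cells in each library carried the myeloid genes Tyrobp and Fcer1g, although the label reads epithelium; they are used as cells that bear no motile cilium. All 10 ciliated markers that the rule did not use were present in both libraries, from 136 CPM (counts per 1000000 UMIs of the class) for Hydin to 6810 CPM for Tppp3 in Control. All but Mlf1 (561 and 593 CPM) were lower in NAPH, with Fam183b at 1563 and 852 CPM and 1110017D15Rik at 2612 and 1736 CPM. Sec14l3 was not confined to ciliated cells, which held 22.9% of its UMIs in Control and 62.7% in NAPH. Median depth per ciliated cell was 5336 UMIs in Control and 8154 in NAPH, and the median mitochondrial share was 3.83% and 5.15%. In each library 5 ciliated cells also passed the AT2 rule, and 14 barcodes occurred in both libraries.

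In ciliated cells the members took 1.25% of all UMIs in Control (1.23% to 1.27%) and 1.15% in NAPH (1.13% to 1.16%). Outside these cells they took 0.0252% and 0.0385% in secretory cells, 0.0578% and 0.0634% in AT2 cells, and 0.0312% and 0.0337% in myeloid cells. Per ciliated cell the members held a median of 127 UMIs per 10000 in Control (lowest 35.8, highest 198) and 113 in NAPH (49.0 to 207). Secretory cells had medians of 2.20 and 3.69 and AT2 cells of 5.33 and 5.75, and the 5th percentile of ciliated cells (92.3 and 80.8) lay above the 95th of these other classes (11.4 at most). With every ciliated cell thinned to 3500 UMIs, 26 members were detected per cell in Control and 25 in NAPH (34 and 39 before thinning). The lowest cell kept 8 members in Control and 10 in NAPH, and the highest 36 in each.

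**Figure D1:**
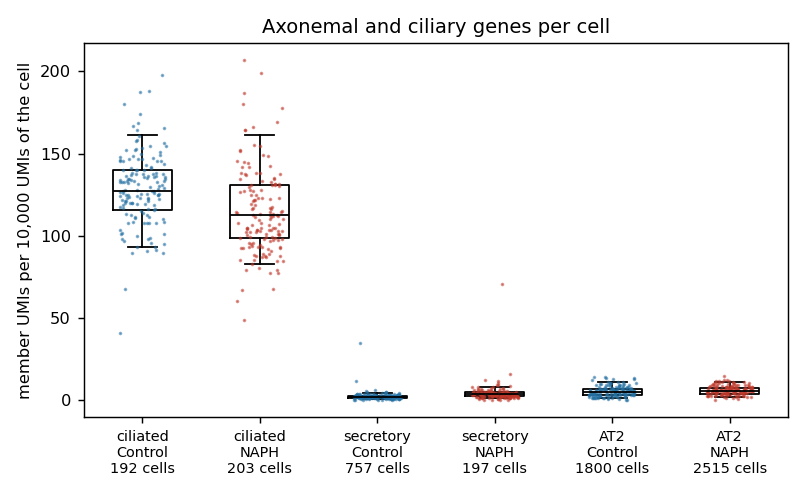
Member UMIs per 10000 UMIs of the cell (y axis) by cell class and library. Boxes span the 25th to 75th percentile with the median as a line, whiskers the 5th to 95th percentile, and points are up to 150 cells drawn at random per class. Ciliated cells sit at medians of 127 and 113, all other classes below 6.

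Cfap126, a protein of the ciliary base and doublet wall also known as Flattop (chr1:171113918-171126967, GRCm38), was the most abundant member, at 1072 CPM in Control and 822 CPM in NAPH. Rsph1, a subunit of the radial spoke head (chr17:31255019-31277383), followed with 976 and 755 CPM. Ift20, an IFT-B subunit that is also found at the Golgi apparatus (chr11:78536361-78541737), had 649 CPM in each library. The other members among the 10 highest were Ift43, Cfap20, Dnali1, Tekt1, Ift22, Cfap36 and Dnah12. These 10 genes held 43.0% of member UMIs in Control and 40.9% in NAPH. Since the 3′ kit counts transcript ends, these levels are not scaled by gene length. The order of levels was close to the same in both libraries, with a Pearson r of 0.97 over the log2 levels of 68 members, all measured in the same pair of libraries.

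**Figure D2:**
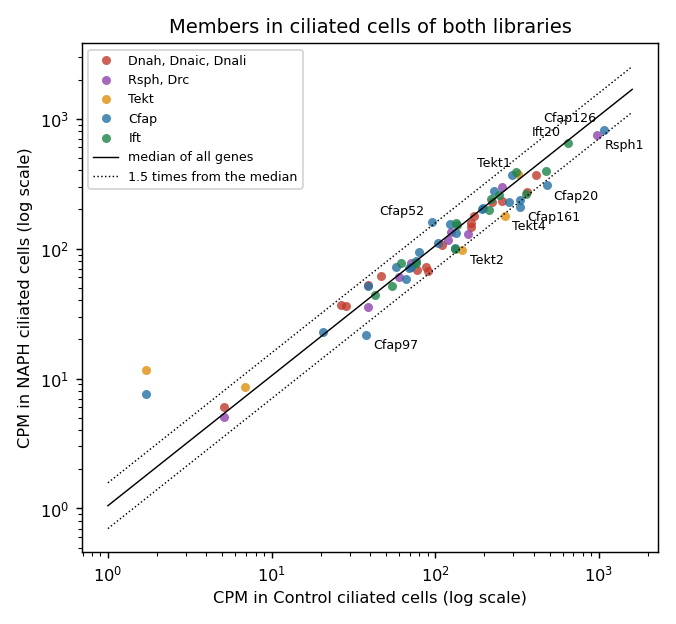
Level of each of the 68 members in ciliated cells of Control (x axis) and NAPH (y axis), in CPM on log scales, coloured by family. The solid line is the median NAPH over Control ratio of all genes and the dotted lines lie 1.5 times from it; Cfap52 lies above them and Cfap97, Cfap20, Cfap161, Tekt2 and Tekt4 below. Members in the lower left corner have too few UMIs for a ratio.

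Promoter windows of 250 bases before the start were at hand for 57 of the 68 members (RefSeq, GRCm38.p6). They were searched on both strands for the X-box pair, the palindromic motif bound by RFX factors, which are known regulators of cilium genes. It was written as GTNNCC and GGNNAC with 1, 2 or 3 bases between them. The pair was found in 8 of 57 members (14%) and in 3.35% of the windows of 27025 genes. The shorter motif GTTGCC, 1 arm of an X-box, which can lie inside a pair, was found in 17 members (29.8%) and in 11.8% of all genes. The forkhead motif TGTTTAC, of the kind that Foxj1 binds, was found in 3 members (5.26%) and 3.54% of all genes. A match is a description of the letters and not a bound site. The windows of the 4 members that hold a pair and overlap no annotated exon are shown 5′ to 3′ on the gene's strand with the pair in capitals: Cfap206, a radial spoke protein (chr4:34730207-34730456, minus strand), Cfap77 (chr2:29055067-29055316, minus strand), Ift22, a small-GTPase-like subunit of IFT-B (chr5:136907900-136908149, plus strand), and Tekt4, a tektin (chr17:25471340-25471589, plus strand, which lies in an intron of the longer GENCODE model of the gene). The pair begins 23 bases before the start in Cfap206, 236 in Cfap77, 160 in Tekt4, and 63 and 33 in Ift22, which has 2.
Cfap206: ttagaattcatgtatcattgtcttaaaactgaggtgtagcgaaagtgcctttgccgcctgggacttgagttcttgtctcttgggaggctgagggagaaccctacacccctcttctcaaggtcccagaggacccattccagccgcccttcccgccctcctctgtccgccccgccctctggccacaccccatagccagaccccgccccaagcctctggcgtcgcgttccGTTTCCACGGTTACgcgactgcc
Cfap77: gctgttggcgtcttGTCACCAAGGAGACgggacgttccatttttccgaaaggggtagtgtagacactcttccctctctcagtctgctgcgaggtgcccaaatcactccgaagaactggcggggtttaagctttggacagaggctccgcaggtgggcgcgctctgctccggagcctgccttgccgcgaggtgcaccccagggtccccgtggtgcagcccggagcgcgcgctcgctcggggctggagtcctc
Ift22: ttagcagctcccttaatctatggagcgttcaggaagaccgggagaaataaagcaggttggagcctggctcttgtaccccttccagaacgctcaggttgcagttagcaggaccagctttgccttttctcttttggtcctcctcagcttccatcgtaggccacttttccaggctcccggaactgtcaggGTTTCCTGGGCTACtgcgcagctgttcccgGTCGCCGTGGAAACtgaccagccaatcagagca
Tekt4: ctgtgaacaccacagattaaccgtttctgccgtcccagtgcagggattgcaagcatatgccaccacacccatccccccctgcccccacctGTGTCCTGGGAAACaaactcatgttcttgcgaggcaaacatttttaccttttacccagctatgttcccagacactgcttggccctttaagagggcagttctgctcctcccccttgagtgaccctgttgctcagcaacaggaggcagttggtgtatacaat

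In ciliated cells Cfap206 had 228 CPM in Control and 277 CPM in NAPH, Cfap77 had 330 and 237 CPM, Ift22 had 311 and 387 CPM, and Tekt4 had 266 and 179 CPM. Only Tekt4 differed by 1.5 times or more once set against the median of all genes.

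Members were next compared between cell classes within each library, as ratios relative to the median of all genes with at least 50 UMIs in both classes together. Some members met this minimum through ciliated cells alone, which favours a higher call, so the counts below are a description and not a test. The median CPM ratio of all genes was 3.32 in Control and 2.44 in NAPH for ciliated over secretory cells. For ciliated over AT2 cells it was 1.58 and 1.61. Ratios of plain CPM are therefore higher than those given in this paragraph. Without cells that pass more than 1 class rule, secretory cells of NAPH held 0 UMIs of Dnah3 and 1 of Tekt1. In Control, 58 of 59 members with enough UMIs were at least 2 times higher in ciliated than in secretory cells, against 19.0% of all genes; Ift52 fell just short of the fold. In NAPH it was 61 of 62 members against 21.0% of all genes, and Cfap97 was the exception at 1.15. Against AT2 cells it was 57 of 59 members in Control (19.4% of all genes) and 61 of 63 in NAPH (20.9% of all genes). Ift20 (1.57 in Control, 1.29 in NAPH) and Cfap97 (1.91 and 1.12) were the exceptions in both libraries. No member was at least 2 times lower in ciliated cells, a side that held 20.4% (Control) and 17.4% (NAPH) of all genes against secretory cells and 21.2% and 18.8% against AT2 cells.

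The families differed in how much of their level remained outside ciliated cells. The 14 IFT genes had a median level in AT2 cells of 6.32% of their ciliated level in Control and 7.0% in NAPH. The other members with at least 50 UMIs in the 2 classes had medians of 0.441% over 45 genes and 0.755% over 49 genes. Without cells that pass more than 1 class rule, the medians were 5.94% and 6.62% for IFT genes and 0.242% and 0.349% for the others. The part of free RNA in these shares was not tested. In secretory cells the IFT median was 3.50% and 6.10% and that of the other members 0.417% and 0.633%. In myeloid cells it was 6.00% and 5.98% against 0.638% and 0.526%.

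Every IFT gene had at least 2.72% of its ciliated level in AT2 cells of Control and 2.94% in NAPH. Of the 49 other members with at least 50 UMIs in ciliated cells, 44 in Control and 43 in NAPH lay below the lowest IFT gene. The exceptions in both libraries were Cfap20, Cfap36, Cfap97, Rsph3a and Rsph9, and in NAPH also Cfap69. Cfap20, a protein of the junction that closes the doublet (chr8:95420249-95434869), had 479 and 306 CPM in ciliated cells and 72.6 and 58.7 CPM in AT2 cells. Rsph9, a spoke head subunit, kept 5.22% and 6.00% of its ciliated level in AT2 cells, while the spoke head subunit Rsph1 kept 0.273% and 0.435%.

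Ift20 had the highest level outside ciliated cells of any IFT gene. It stood at 262 CPM in Control and 313 CPM in NAPH in AT2 cells, 78.6 and 123 CPM in secretory cells, and 79.8 and 91.6 CPM in myeloid cells. Ciliated cells held 11.8% and 12.5% of all its UMIs. By contrast, ciliated cells held 94.0% and 94.2% of the UMIs of Dnah5, an outer arm heavy chain, and 91.3% and 97.2% of those of Tekt1. Over all 68 members, with those too scarce for a ratio included, 22 in Control and 38 in NAPH had at least 90% of their UMIs in ciliated cells. The share of all genes past this mark was not computed.

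**Figure D3:**
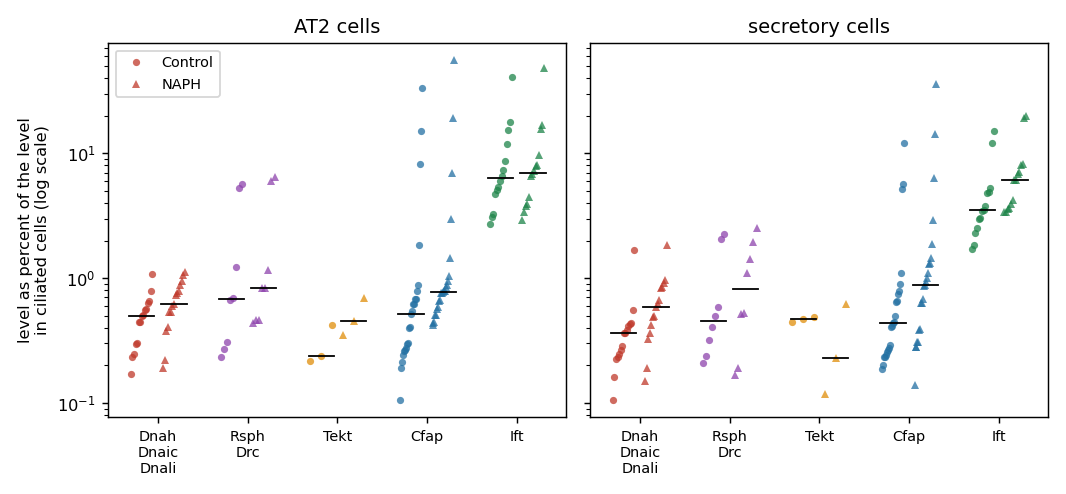
Level in AT2 cells (left) and secretory cells (right) as percent of the level in ciliated cells, on a log scale, for 63 members by family; circles are Control, triangles NAPH, and bars the family median. A member with no UMI in a class is placed at the limit of 3 UMIs. All 14 IFT genes lie at or above 2.72% in AT2 cells of Control, and most genes of the other families lie below 1% there.

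The injury comparison asked whether members differed between NAPH and Control within ciliated cells. Of 68 members, 63 had at least 50 UMIs in the ciliated cells of both libraries together, and Cfap99, Dnah8, Rsph3b, Tekt3 and Tekt5 did not. Ratios are relative to the median of all 7239 genes that passed the same minimum, which was 0.07 above 0 on the log2 scale. The member median was -0.06 relative to it. The summed member level was 0.922 of that in Control (0.903 to 0.942), or 0.878 relative to the median of all genes. At the fold of 1.5, 1 member was higher in NAPH, against 12.1% of all genes, and 5 were lower, against 7.0% of all genes. A further 57 lay between. In ciliated cells of 5000 to 10000 UMIs alone, a range chosen after the data were seen, 5 were higher and 5 lower. The ratio was below the gene median for 39 members, 18 of them with the whole counting interval below it, and above it for 24, 3 with the whole interval. On plain CPM the split turned, with 29 members below 1, 16 of them with the whole interval, and 34 above it, 7 with the whole interval, and a median log2 ratio of 0.01. The share of all genes with the whole interval on either side was not computed, so these interval counts only describe the members.

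Cfap52, a protein inside the doublet microtubules (chr11:67924806-67965651), was the one member past the fold upward, with 95.3 CPM in Control and 159 CPM in NAPH. Its ratio was 1.59 (1.28 to 1.99) and stayed between 1.52 and 1.87 under the alternatives run. Cfap161, another inner protein of the doublet (chr7:83774101-83794880), had 328 and 210 CPM, a ratio of 0.611 (0.531 to 0.704). Cfap20 had a ratio of 0.609 (0.542 to 0.684). Cfap97 (chr8:46151771-46195590) was the lowest at 0.550 (0.353 to 0.857), from 44 and 43 UMIs. In ciliated cells of both libraries Cfap97 was scarce, at 37.8 and 21.8 CPM, and its AT2 level came to 33.2% and 55.3% of these.

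Of the 3 tektins with a ratio, filament proteins of the doublet wall, 2 were lower past the fold. Tekt2 (chr4:126322121-126325688) had 147 CPM in Control and 97.9 CPM in NAPH, a ratio of 0.635 (0.514 to 0.785). Tekt4 (chr17:25454615-25476602) had a ratio of 0.641 (0.548 to 0.749). On plain CPM, not relative to the gene median, both fall short of the fold, which leaves 3 members lower. Tekt1 had 323 and 376 CPM and a ratio of 1.11 (0.979 to 1.26), which became 0.906 with cells thinned to 3500 UMIs. Tekt3 had 8 and 17 UMIs and Tekt5 had 2 and 23 UMIs in ciliated cells, too few for a ratio.

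None of the dynein genes passed the fold over all ciliated cells. In cells of 5000 to 10000 UMIs alone, Dnah2 (1.70), Dnah7c (1.65) and Dnah1 (1.64) did so upward, and with cells thinned to 3500 UMIs Dnaic1 (0.608) did so downward. Outer arm heavy chains had ratios of 0.859 for Dnah5 (258 and 232 CPM), 0.911 for Dnah9 (165 and 158 CPM) and 0.850 for Dnah11 (77.3 and 69.0 CPM). The outer arm intermediate chains stood at 0.707 for Dnaic1 (90.1 and 66.9 CPM) and 0.977 for Dnaic2 (173 and 178 CPM). Among the 9 inner arm heavy chains, ratios ran from 0.713 for Dnah12 (366 and 274 CPM, interval 0.627 to 0.812) to 1.31 for Dnah7c, from 31 and 72 UMIs. Dnah2 had 38.6 and 52.7 CPM and a ratio of 1.30 (0.908 to 1.89), and Dnah1 had 46.4 and 61.4 CPM and a ratio of 1.26 (0.907 to 1.77). Dnah7a, Dnah7b and Dnah7c are near copies, as are Rsph3a and Rsph3b, and the sources used here do not say how reads were split among them. Dnali1, an inner arm light chain, had 410 and 366 CPM and a ratio of 0.848 (0.755 to 0.954).

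Radial spoke genes ran from 0.737 for Rsph1 (0.681 to 0.796) to 1.10 for Rsph9 (0.952 to 1.27). Between them lay Rsph3a at 0.875, Rsph10b at 0.935, Rsph14 at 0.956 and Rsph4a, another spoke head subunit, at 1.02. In the nexin-dynein regulatory complex, Drc1 had 160 and 130 CPM, a ratio of 0.774 (0.638 to 0.940), and Drc7 71.3 and 77.6 CPM, a ratio of 1.04 (0.789 to 1.37). Rsph1 and Cfap126 (0.730, 0.678 to 0.787), the most abundant members, both lay below the gene median without passing the fold.

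No IFT gene passed the fold in either direction over all ciliated cells, and Ift27 did so in cells of 5000 to 10000 UMIs alone (0.650). The lowest ratios were those of Ift27, a small GTPase of IFT-B, at 0.696 (0.610 to 0.793), with 359 and 262 CPM, and of Ift88, an IFT-B core subunit, at 0.715 (0.576 to 0.888), with 133 and 99.9 CPM. The highest was that of Ift80 at 1.20 (0.898 to 1.60). The IFT-A genes stood at 0.789 for Ift43, 0.902 for Ift122 and 0.968 for Ift140. Taken as a share of ciliated UMIs, IFT genes made up 0.311% in Control and 0.305% in NAPH, and the other members 0.934% and 0.844%.

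**Figure D4:**
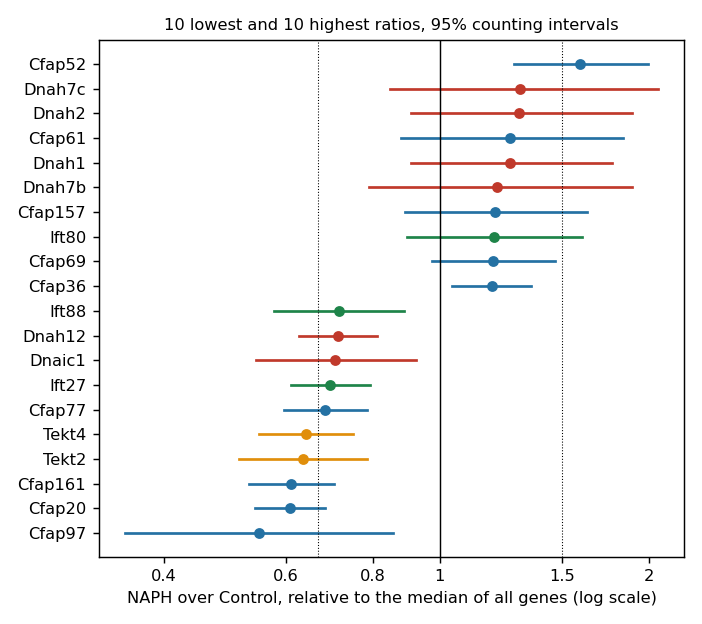
NAPH over Control ratio in ciliated cells, relative to the median of all genes (x axis, log scale), for the 10 lowest and 10 highest of 63 members, coloured by family. Lines are 95% counting intervals and dotted lines mark 1.5 times from the median; Cfap52 at 1.59 and 5 members from 0.550 to 0.641 lie past them.

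Cells and libraries differed in other respects beside these ratios. In ciliated cells Scgb1a1, a secretory product, stood at 23649 CPM in Control and 8773 CPM in NAPH, and Scgb3a2 at 254 and 1320 CPM. Scgb1a1 was also lower in NAPH in AT2 cells (15237 and 4675 CPM) and in myeloid cells (14249 and 2786 CPM). Scgb3a2 stood at 295 and 459 CPM in AT2 cells and at 183 and 207 CPM in myeloid cells. All 6 listed AT2 markers were present in ciliated cells of both libraries, with Sftpc at 11417 and 11216 CPM and Sftpb at 611 and 1194 CPM. The basal and neuroendocrine markers were at 0 in Control, and in NAPH none of these 7 genes exceeded 5 UMIs. Of the 3 dividing-cell genes, Cdk1 went from 2 to 98 UMIs (1.72 to 49.7 CPM) and Top2a from 12 to 58 UMIs (10.3 to 29.4 CPM). Mki67, with 7 and 12 UMIs, was nearly level at 6.01 and 6.08 CPM. The part of these differences and of depth in the member ratios was not tested.

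Further genes of the cilium were read from 5 lists. Past the fold of 1.5, 12.1% of all genes were higher in NAPH ciliated cells and 7.0% were lower. Of 42 other axonemal structure genes with enough UMIs, 0 were higher and 3 lower, the latter near the share of all genes. The 3 were Tppp3 (0.624), a tubulin-binding protein, the dynein light chain Dnal4 (0.632) and Mns1 (0.658), an inner doublet protein. Of 28 genes of other IFT subunits, the BBSome and ciliary motors, 1 was higher (Ttc30a1, 1.65, interval 0.901 to 3.19) and 3 were lower. The lower ones were Arl13b (0.513), a ciliary membrane GTPase, Wdr60 (0.636), a chain of the IFT dynein, and the BBSome subunit Ttc8 (0.657). None of 8 dynein arm assembly factors and none of 12 tubulins and tubulin modifiers passed the fold. The median log2 ratio was -0.22 for the structure list, -0.14 for the IFT and BBSome list, 0.05 for the assembly factors and -0.02 for the tubulin list.

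Of 11 ciliogenesis regulators with enough UMIs, 3 were higher in NAPH, against 12.1% of all genes, and 0 lower, against 7.0%: Ccno (3.70, interval 2.58 to 5.44), a cyclin family protein of centriole amplification, Plk4 (2.35, 1.20 to 5.04), the kinase that starts centriole assembly, and Hes6 (2.33, 2.04 to 2.68). Ccno had 30.0 CPM in Control and 117 CPM in NAPH, Plk4 9.44 and 23.3 CPM, and Hes6 231 and 566 CPM. Foxj1 itself, which the cell rule used, had 1113 and 1238 CPM (1.06, 0.990 to 1.13). The other genes of that rule were lower in NAPH. Ccdc153 had 2647 and 1907 CPM (0.686, 0.654 to 0.719) and Tmem212 had 1098 and 893 CPM (0.774, 0.720 to 0.833). Per ciliated cell the median score of the rule was 49.4 in Control and 40.5 in NAPH.

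Most Ccno UMIs came from few cells. Cells with at least 5 UMIs over Ccno, Cdc20b, Mcidas and Plk4, genes of the multiciliation programme, were singled out after these values were seen. They numbered 2 of 192 ciliated cells in Control and 8 of 203 in NAPH. The 8 cells held 211 of 230 Ccno UMIs in NAPH ciliated cells. Without these cells, Ccno stood at 7.26 CPM in Control and 10.9 CPM in NAPH (1.44, interval 0.60 to 3.79) and Plk4 at 7.26 and 9.79 CPM (1.29, 0.526 to 3.44), both with under 50 UMIs and short of the fold. Hes6, which was not part of the count, still passed the fold, at 210 and 576 CPM (2.61, 2.26 to 3.02). Ccno and Plk4 were part of the count, so their fall without these cells follows from how the cells were chosen. The same holds for the large part of Ccno UMIs in the 8 cells. Where the higher NAPH values come from was not tested. The 8 cells had a median of 26912 UMIs against 7907 in the rest, and Cdk1 at 360 against 7.49 CPM. In NAPH 4 secretory and 2 AT2 cells also met the count, with members at 0.0851% and 0.0974% of their UMIs, and were not counted among the 8. A minimum count favours deep cells: 7 of the 15 NAPH ciliated cells with at least 20000 UMIs were among them. Whether they are doublets or what part depth plays was not tested.

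In these 8 cells the members took 1.11% of UMIs, against 1.15% in the other ciliated cells of NAPH, but the genes that made up this share differed. Ratios here are relative to the median of all genes with enough UMIs, which was -0.33 on the log2 scale, so they exceed the ratios of the CPM. On this scale, of 61 members with enough UMIs, 6 were at least 2 times higher than in the rest, against 19.8% of all genes. A further 26 were at least 2 times lower, against 24.6%. Lower were the heavy chains Dnah3 (4.23 against 81.8 CPM, from 1 UMI), Dnah5 (21.2 against 261 CPM, ratio 0.102) and Dnah9 (21.2 against 176 CPM, ratio 0.151), with Cfap100 (0.145) and Ift172 (0.222). Higher were Cfap36 (1067 against 272 CPM, ratio 4.93), Ift22 (1012 against 302 CPM, ratio 4.20), Rsph3a (3.96), Tekt1 (3.13), Rsph9 (2.32) and Tekt4 (2.12). On plain CPM Rsph9 (495 against 268 CPM) and Tekt4 (279 against 165 CPM) fell short of 2 times. Dnah7c (16.9 against 39.2 CPM), Cfap70 (50.8 against 108 CPM) and Dnaic1 (33.9 against 71.4 CPM) were then also at least 2 times lower. Of the heavy chains measured there, Dnah7b alone lay above the gene median, at 1.17. The radial spoke genes fell on both sides, with Rsph10b (0.246) and Rsph4a (0.363) at least 2 times lower and Rsph14 (1.75) and Rsph1 (1.97) above the median without passing the fold.

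In Control 2 ciliated cells met the count, with 62470 UMIs between them, so single genes rest on few UMIs. Against the other 190 ciliated cells of Control, 46 of 56 members lay on the same side of the gene median as in NAPH. The Spearman rho over these genes, which share the same cells, was 0.75. Neither value was computed over all genes, so whether the likeness is particular to the members was not tested. Dnah5 stood at 0.486 (0.194 to 1.01, from 7 UMIs) and Dnah9 at 0.214 (0.0257 to 0.784, from 2 UMIs). Cfap36 stood at 2.76 (1.94 to 3.83) and Ift22 at 2.38 (1.66 to 3.34). The injury comparison was also read without the cells that met the count in either library. The NAPH over Control ratio of Cfap36 went from 1.19 to 0.945, that of Ift22 from 1.19 to 0.980 and that of Tekt1 from 1.11 to 0.986. These 3 genes then no longer lay above the gene median. On plain CPM the same ratios were 0.993, 1.03 and 1.03. The 3 genes are among the members highest in the NAPH cells left out, so their fall follows from the choice of cells and genes. What part these cells play in the NAPH ratios was not tested. The ratio of the summed members on plain CPM stayed at 0.925.

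**Figure D5:**
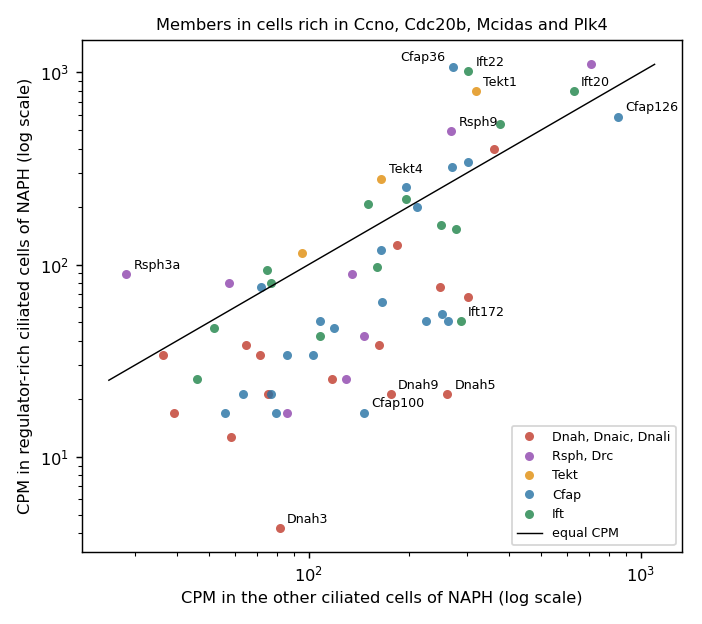
Level of 61 members in the 8 NAPH ciliated cells with at least 5 UMIs of Ccno, Cdc20b, Mcidas and Plk4 (y axis) against the other 195 (x axis), in CPM on log scales, coloured by family; the line marks equal CPM. Cfap36 and Ift22 lie above the line at over 1000 CPM, and Dnah3, Dnah5 and Dnah9 far below it.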

How the data were processed

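Raw UMI counts per gene and barcode were deposited by the authors for 2 libraries, made with Cell Ranger against mm10 per the submitters' processing notes. The sources used here name no version, settings or rule for calling barcodes. Control held 3298 barcodes and 41699755 UMIs and NAPH 3685 barcodes and 38497783 UMIs. Barcodes under 500 genes, under 1000 UMIs or over 20% mitochondrial UMIs were left out (0 and 4). Scrublet in scanpy 1.11.5 (Python 3.11.15) marked 0.243% and 0.0815% of cells, which is too few, so the highest scores were removed at 0.8% per 1000 barcodes (87 and 109 cells), leaving 3211 and 3572.

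Counts were summed per class and library. Ratios carry exact conditional Poisson intervals and shares exact Clopper-Pearson intervals, at 95%, for counting error only. A ratio needed 50 UMIs over both sides and was divided by the median ratio of all such genes. A class with no UMIs was set to 3. The median, edgeR 4.0.16 TMM factors and plain CPM were compared, among 17 alternatives. On simulated counts a true ratio of 2 came out at a median of 2.04 and a true ratio of 0.5 at 0.492. In the same simulation 3.81% of unchanged genes passed the fold of 1.5. The counts were Poisson draws without variation between cells or libraries, so this share covers counting error only. Positions are from GENCODE vM21.

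Members were named by rule: the 10 highest and 10 lowest ratios, the 10 highest levels, the 5 highest and 5 lowest AT2 percents, all tektins and radial spokes, and 3 of each direction per list. Other members are named as the rest of their role group. The members and lists were chosen with earlier results of these data known.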

Additional observations from a re-analysis of the deposited data

How the results depend on the processing

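The direction of the summed member ratio, 0.922, held under all alternatives run (0.865 to 0.925), and the counts against AT2 cells kept within 1.5 times of their values. The share of UMIs in ciliated cells, 1.25% and 1.15%, became 1.20% and 1.08% with doublet-marked cells kept, where the ratio was 0.901 and the AT2 median of non-IFT members in Control 0.573%. It became 1.29% and 1.17% both without cells of another class and without Sftpc-rich cells, and 1.29% and 1.18% with a ciliated score of at least 20. Without cells of another class the AT2 medians of non-IFT members were 0.242% and 0.349%. With cells thinned to 3500 UMIs the Control share was 1.29%, the ratio 0.896 and the AT2 median of non-IFT members in NAPH 0.504%. At 2000 UMIs, 18 and 17 members were detected per cell. The ratio was 0.878 relative to the gene median and 0.865 with TMM. Plain CPM left 3 members lower, and a minimum of 20 UMIs gave 2 higher. In cells of 5000 to 10000 UMIs, chosen after seeing the data, 5 members were higher, 40 exceeded secretory cells in NAPH, where fewer cells leave fewer genes to test, and the AT2 medians of non-IFT members were 0.331% and 0.353%. Causes of the other shifts were not tested. No paired analysis was possible because there is 1 library per group. Depth limits members under 50 UMIs, for which no ratio is given.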
